A study of Homo sapiens with 7 samples.

Results

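The genes described here encode proteins of the Fanconi anemia pathway, of homologous recombination and of the DNA damage checkpoint. They are 42 genes chosen by symbol from the 59251 rows of a table of RNA-seq counts. Their values were not part of the rule, but earlier results of these data were known when the list was made. All 42 were present in the table, and all 42 passed the filter on low counts. The cells were H9, an established line of human embryonic stem cells, kept in RSeT, a medium for the naive state of pluripotency. The comparison was of 3 libraries from cells that received guide RNA plasmids named DJL1 with 4 libraries from cells named CTRL. Transfection took place in RSeT with 10 nM DZNep, an inhibitor of histone methylation, and 5 nM TSA, an inhibitor of histone deacetylases, and for the initial 16 h also with CEPT, a cocktail that promotes survival. Cells were collected 48 h after transfection, so that DJL1 and CTRL alike were measured under these chromatin inhibitors. The study concerns LINE1 retrotransposons in the distal junctions, which flank the ribosomal DNA arrays. The labels name neither the protein that the guides direct nor the sequence targeted in CTRL cells. All libraries come from 1 cell line, and nothing in the labels says whether the replicates were separate cultures, so that the p-values measure spread among these libraries alone, and that spread may be technical.

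The Fanconi pathway removes covalent crosslinks between the strands of DNA. When a replication fork stalls at a crosslink, a multi-subunit ubiquitin ligase, the core complex, marks the FANCD2-FANCI clamp, which brings nucleases to cut the crosslink out. The break that results is repaired by homologous recombination. Its ends are trimmed by MRE11-RAD50-NBN, RBBP8 (also called CtIP) and EXO1, strand exchange with an intact copy is prepared by BRCA2, PALB2 and the proteins of the RAD51B, RAD51C, RAD51D, XRCC2 and XRCC3 genes, and the joined DNA molecules are taken apart by the BLM complex or by nucleases. The kinases ATM and ATR sense breaks and stalled forks and signal through CHEK2 and CHEK1. Embryonic stem cells divide rapidly with a short G1 phase and are known to express many of these genes at high levels.

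Total counts ran from 34634882 to 37795742 in the DJL1 libraries and from 62277489 to 76691997 in the CTRL libraries, and the spread between libraries (the biological coefficient of variation of edgeR, a package for count data) was 13.9% within DJL1 and 3.45% within CTRL. The groups therefore differed in depth and in spread, and no batch is named, so library preparation and guides cannot be told apart. All 12 markers of pluripotent cells were detected in both groups, and 10 of them were lower in DJL1. Their summed level was 9801 to 10969 CPM in DJL1 and 12339 to 12593 CPM in CTRL, where CPM is counts per 1000000 counts of the scaled library. Of 15 fibroblast and feeder-cell markers 13 passed the filter, 10 of them higher and 1 lower in DJL1, and their sum was 852 to 977 CPM in DJL1 and 563 to 584 CPM in CTRL. COL1A1 made up most of the difference in the sum, with a mean of 484 CPM in DJL1 and 241 CPM in CTRL. PRRX1, COL3A1 and PDGFRB, also higher, averaged only 0.301, 1.42 and 2.63 CPM in DJL1. Of the defining markers that did not pass, DCN had 0 to 6 counts in the DJL1 libraries and 0 to 1 in the CTRL libraries, and LUM had 3 to 6 counts in DJL1 and 0 to 6 in CTRL. The part of these markers in the results below was not tested. In bulk RNA, fewer cells that express a gene and less RNA of it per cell cannot be told apart.

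Most of these repair genes were modestly lower in DJL1 cells. Of the 42 genes 30 were lower and 1 was higher at an adjusted p under 0.05 in the quasi-likelihood test of edgeR (Benjamini-Hochberg adjustment over all 26062 genes tested), and 11 were not called. The 30 lower genes are 71.4% of the 42. Among all tested genes 25.1% were called lower and 27.0% higher. Of the 33 members with a mean of 8 to 64 CPM, 24 were lower (72.7%) and 1 was higher, while of the 8140 tested genes in that range 38.3% were lower and 28.9% higher. The changes were small. FANCF, with the largest, was at 0.686 of its CTRL level. Among all tested genes, at every level of counts, 23.1% were called with a change of at least 1.5-fold. The share among genes of 8 to 64 CPM is not given. The median log2 fold change over the 42 genes was -0.32, against 0.01 over all tested genes, and the single values ran from -0.54 for FANCF to 0.32 for RAD51C. The sum of the 42 genes was 1338 to 1464 CPM in DJL1 and 1704 to 1718 CPM in CTRL, with no overlap. For 29 genes all DJL1 libraries lay below all CTRL libraries and for RAD51C they lay above. Of all tested genes 26.2% had every DJL1 library below CTRL and 27.4% above. Of the 8140 tested genes of 8 to 64 CPM, 3126 had every DJL1 library below CTRL and 2358 above. The authors' deposited table of the same comparison, which lists all 42 genes, has 30 of them lower and 1 higher at an adjusted p under 0.05, and all 31 of these calls had the same direction as here. Without DJL1 replicate 2 the count of higher genes was 2 in place of 1, ATR being the other, with 30 still lower.

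**Figure D1:**
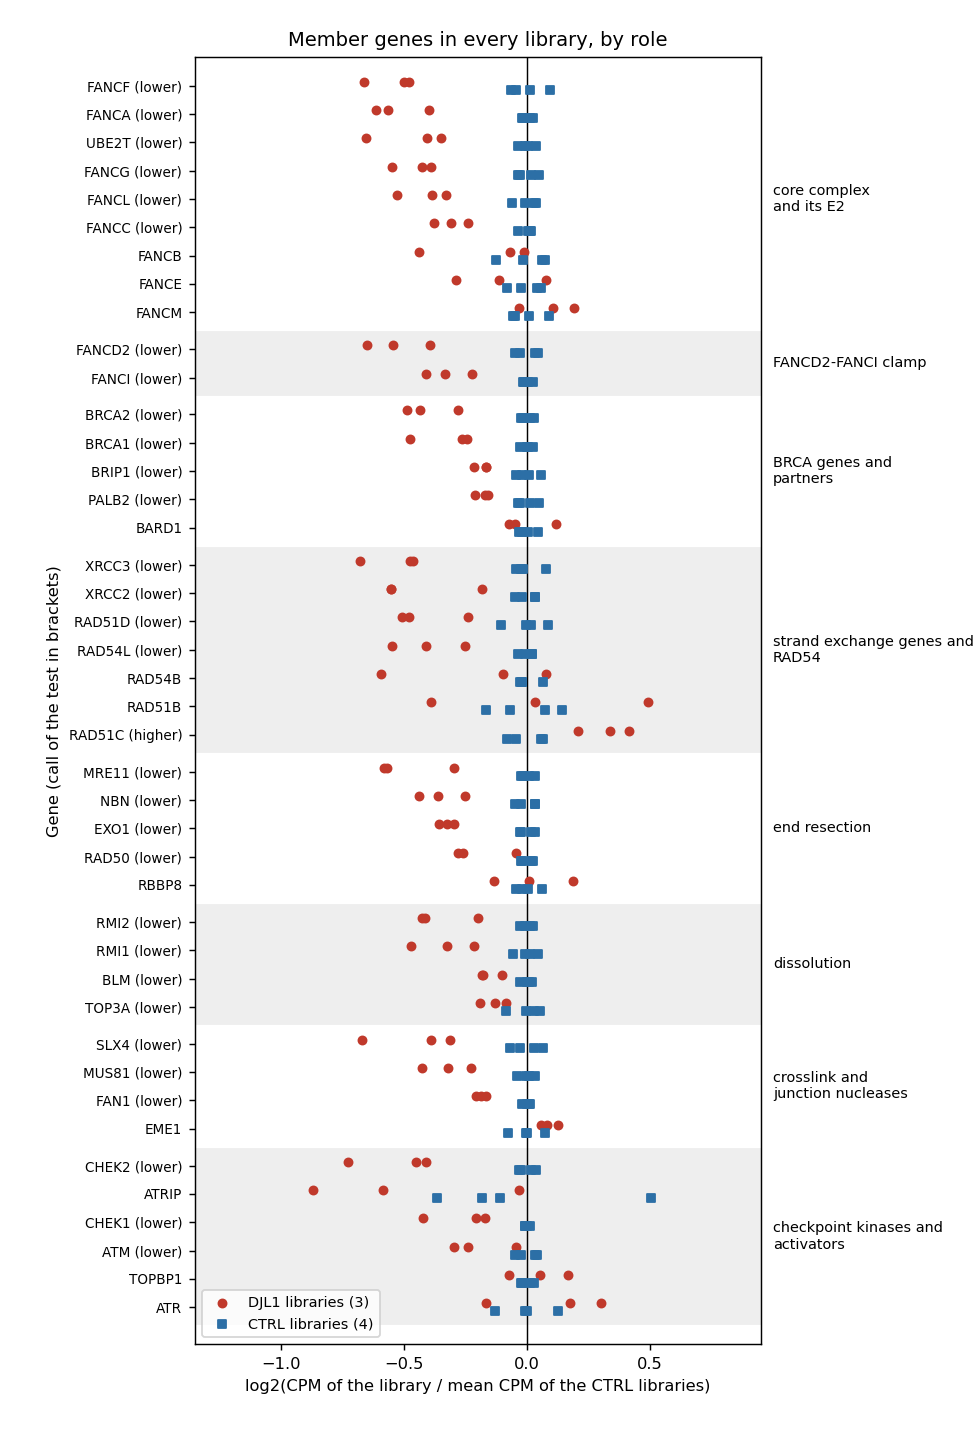
Each row is a gene, grouped by role, and each point is 1 library, placed by the log2 of its CPM over the mean CPM of the CTRL libraries (red circles, 3 DJL1 libraries; blue squares, 4 CTRL libraries). In 29 rows every DJL1 point lies left of every CTRL point, and in the row of RAD51C every DJL1 point lies right.

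The DJL1 libraries spread more than the CTRL libraries, and replicate 2 was the lowest of them in most cases. The median difference of the 42 genes from the CTRL mean was -0.23 on the log2 CPM scale in DJL1 replicate 1, -0.40 in replicate 2 and -0.24 in replicate 3. Replicate 2 had the lowest value among the DJL1 libraries for 28 of the 42 genes. It lay below the lowest CTRL library for 39 genes, replicate 1 for 30 and replicate 3 for 33. Without replicate 2 the median over the 42 genes was a log2 fold change of -0.29.

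**Figure D2:**
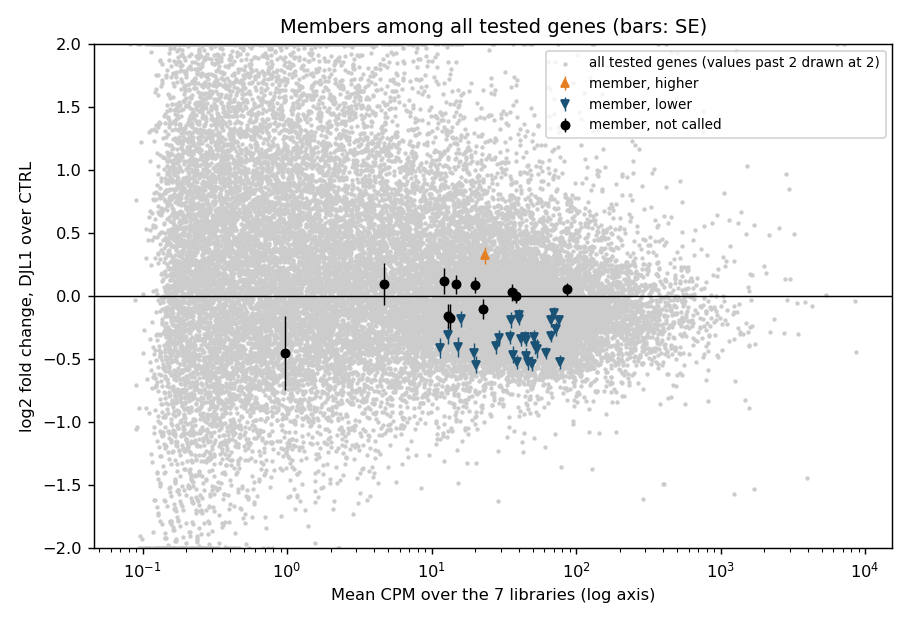
The log2 fold change of DJL1 over CTRL is plotted against mean CPM on a log axis for all 26062 tested genes (grey) and for the 42 repair and checkpoint genes (coloured by call, bars are SE), with grey values past 2 in either direction drawn at 2. The called members form a narrow band just under 0, between -0.54 and -0.14, apart from RAD51C at 0.32.

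Promoter sequence is shown for the genes with the smallest adjusted p in each direction, FANCD2 and FANCG among the lower genes and RAD51C as the single higher one. Each line runs from 120 bases before to 10 bases after the annotated start of the gene, 5′ to 3′ on the strand of the gene, from RefSeq on GRCh38.p14.
FANCD2, chr3:10026317-10026446, plus strand: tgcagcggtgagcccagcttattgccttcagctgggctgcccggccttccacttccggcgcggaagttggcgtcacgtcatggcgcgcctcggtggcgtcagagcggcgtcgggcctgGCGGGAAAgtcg
FANCG, chr9:35079933-35080062, minus strand: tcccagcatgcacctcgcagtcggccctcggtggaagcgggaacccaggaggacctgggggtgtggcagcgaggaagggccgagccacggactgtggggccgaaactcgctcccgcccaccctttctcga
RAD51C, chr17:58692453-58692582, plus strand: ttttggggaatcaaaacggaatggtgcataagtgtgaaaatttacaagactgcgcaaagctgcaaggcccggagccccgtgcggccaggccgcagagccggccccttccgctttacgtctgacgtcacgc
Capitals mark a match to the E2F motif, bound by the E2F factors that drive genes of DNA replication. It was searched on both strands as TTTCCCGC, TTTCGCGC, TTTGCCGC or TTTGGCGC in windows of 250 bases before to 50 after the start. The match in FANCD2 lies on the minus strand and spans the annotated start, and neither FANCG nor RAD51C held one. Of 38 members with a promoter entry 6 held the motif (15.8%), namely EXO1, FANCA, FANCC, FANCD2, XRCC2 and TOPBP1. Of these 38 members 27 were called lower, and 5 of the 27 held the motif (18.5%). Among the other 11 it was in TOPBP1 alone (9.09%). The motif was in 4.87% of the promoters of 13361 tested protein-coding genes and in 6.37% of the 4114 of these that were called lower. CCAAT, the motif of NF-Y, was in 16 of the 38 (42.1%), against 36.1% of tested protein-coding genes. TTTGAA, the cell cycle homology region, was in 4 (10.5%), against 10.2%. By call, CCAAT was in 14 of the 27 lower members (51.9%) and 2 of the other 11 (18.2%). It was in 37% of the promoters of protein-coding genes called lower. TTTGAA was in 4 of the 27 (14.8%) and 0 of the 11, against 8.92% of those promoters. Whether any motif goes with the call was not tested. The last 2 motifs were also searched on both strands, and no motif contains another, although TTTGCCGC and TTTGGCGC share TTTG with TTTGAA, and TTTGGCGC read on the other strand shares CCAA with CCAAT. FANCI, RAD54B, NBN and RMI2 had no promoter entry.

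In the Fanconi core complex 6 of 9 genes were lower in DJL1, with a median log2 fold change of -0.41 over the 9. FANCF, an adaptor that joins parts of the complex, is encoded on chromosome 11 (22622533 to 22625823, GRCh38.p14, as are all gene positions here). It had 16.4, 14.7 and 16.7 CPM in the DJL1 libraries and 22.2, 23.4, 22.6 and 24.8 CPM in the CTRL libraries. All DJL1 values were below all CTRL values, and the log2 fold change was -0.54 ± 0.069 (SE; edgeR adjusted p = 7.64e-06), the largest decrease of the 42. FANCA on chromosome 16 (89737549 to 89816647), the subunit most often mutated in Fanconi anemia, had 30.5, 29.5 and 34.2 CPM in DJL1 and 44.5, 44.4, 45.9 and 45.4 CPM in CTRL. The groups were again apart, with a log2 fold change of -0.52 ± 0.056 (edgeR adjusted p = 1.36e-06). UBE2T, the ubiquitin-conjugating enzyme that works with the complex, had 26.4, 32.7 and 31.4 CPM in DJL1 and 42.7, 41.8, 41.3 and 40.6 CPM in CTRL, a log2 fold change of -0.46 ± 0.065. Per length it was the most abundant of the 42, at 33.2 CPM per kilobase of transcript in DJL1 and 45.8 in CTRL.

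The scaffold gene FANCG fell to 51.3 ± 2.92 CPM (SD, n = 3) in DJL1, against 70.2 ± 1.92 CPM (SD, n = 4) in CTRL (log2 fold change -0.45). FANCL, the catalytic ubiquitin ligase, fell to 9.59 ± 0.672 CPM in DJL1, against 12.8 ± 0.390 CPM in CTRL (-0.41), and FANCC, a partner of FANCE, to 11.5 ± 0.552 CPM, against 14.2 ± 0.249 CPM (-0.31). FANCB, FANCE and FANCM were not called. FANCB, the X-linked partner of FANCL, averaged 12.1 ± 1.84 CPM in DJL1 and 13.5 ± 0.849 CPM in CTRL. FANCE, which binds FANCD2, averaged 21.7 ± 2.75 CPM in DJL1 and 23.3 ± 1.01 CPM in CTRL, and without DJL1 replicate 3 it was called lower, at -0.21. FANCM, the translocase that anchors the complex on DNA, had a log2 fold change of 0.09 with a 95% interval of -0.07 to 0.25. Exons of FANCA and FANCL overlap those of ZNF276 and VRK2 on the opposite strand over 22.4% and 26.6% of their length in GENCODE 29, and since the strand setting of the counting is not given, part of their counts could belong to these neighbours.

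Both clamp genes were lower. FANCD2 on chromosome 3 (10026437 to 10101932), whose promoter is shown above, had 60.7, 56.4 and 67.3 CPM in DJL1 and 91.3, 86.7, 85.5 and 90.4 CPM in CTRL. The highest DJL1 library was below the lowest CTRL library, and the log2 fold change was -0.52 ± 0.055 (edgeR adjusted p = 1.04e-06, the smallest of the 42). FANCI on chromosome 15 (89243979 to 89317259) had 58.3, 55.3 and 63.0 CPM in DJL1 and 73.8, 72.7, 72.9 and 74.7 CPM in CTRL. Its groups did not overlap either, and its log2 fold change was -0.32 ± 0.048. In GENCODE 29 the exons of FANCI overlap those of POLG on the opposite strand over 8.33% of their length. Part of the FANCI counts could therefore belong to POLG.

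**Figure D3:**
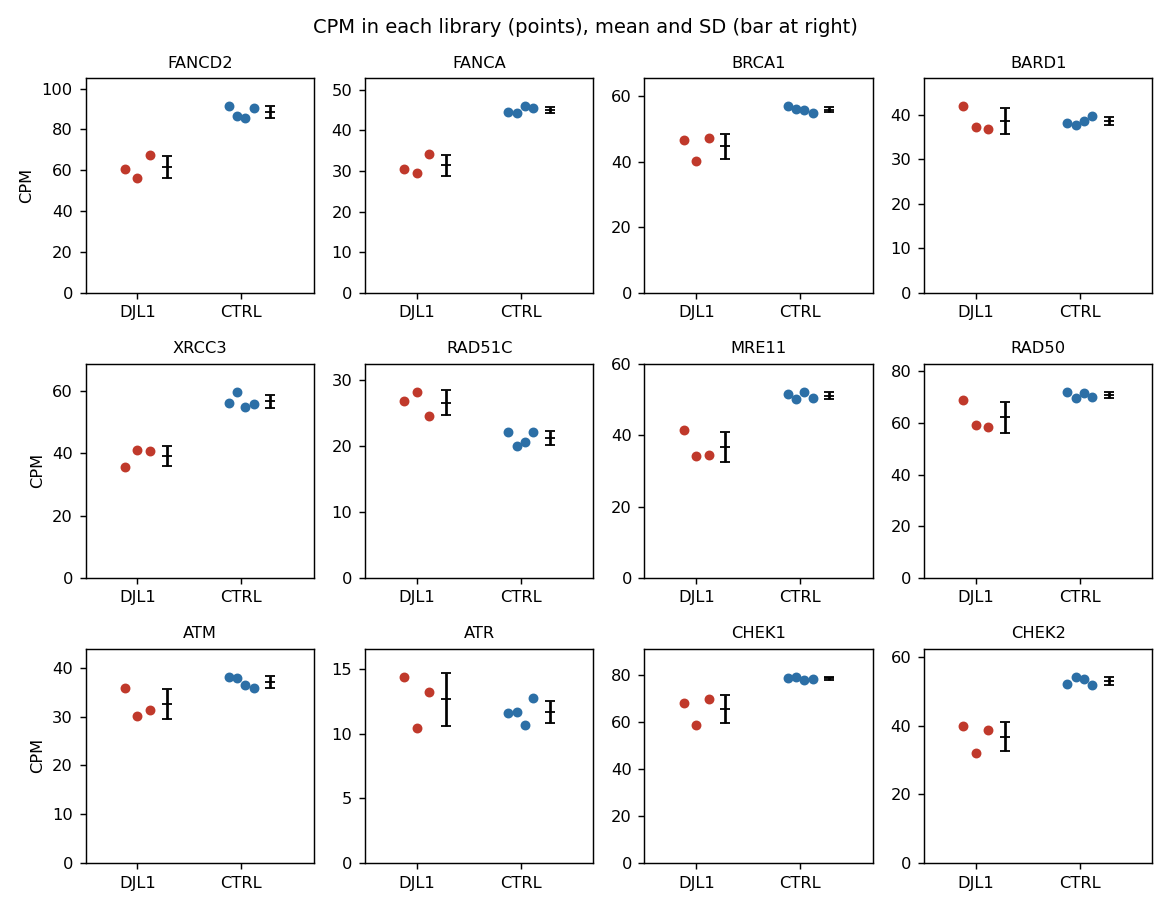
CPM in each library is shown for 12 genes, with DJL1 (red) left of CTRL (blue) and the mean and SD as a bar beside each group. BARD1 and ATR overlap between the groups, RAD51C is higher in all 3 DJL1 libraries, and ATM overlaps in 1 DJL1 library.

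BRCA1 and BRCA2 were lower, while BARD1 was not called. BRCA2 on chromosome 13 (32315077 to 32400268), a mediator of homologous recombination, had 25.7, 23.1 and 22.3 CPM in DJL1 and 30.8, 30.7, 31.4 and 31.9 CPM in CTRL. BRCA1 on chromosome 17 (43044295 to 43170327), a ubiquitin ligase that promotes end resection, had 46.6, 40.2 and 47.2 CPM in DJL1 and 56.9, 56.1, 55.9 and 54.8 CPM in CTRL. Both genes had every DJL1 library below every CTRL library, with log2 fold changes of -0.40 ± 0.059 and -0.32 ± 0.055. The pseudogene BRCA1P1, a partial copy within the RefSeq span of BRCA1, has a row of its own, so that some reads could be split between them. BARD1, the obligate partner of BRCA1, averaged 38.6 ± 2.85 CPM in DJL1 and 38.6 ± 0.900 CPM in CTRL. Its log2 fold change was 0.0019, with a 95% interval of -0.11 to 0.12, and its sign depended on the libraries used, at -0.07 without DJL1 replicate 1. PALB2, which links BRCA1 to BRCA2, was lower by a small amount (37.4 ± 0.733 CPM in DJL1 and 42.3 ± 1.16 CPM in CTRL). The helicase gene BRIP1 (FANCJ) had 14.98, 14.46 and 14.97 CPM in DJL1 and 17.5, 16.5, 16.3 and 16.9 CPM in CTRL, a log2 fold change of -0.18 ± 0.065 (edgeR adjusted p = 0.0295). That call was lost without CTRL replicate 1 (adjusted p = 0.0936) and without CTRL replicate 4 (adjusted p = 0.0718).

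RAD51B, RAD51C, RAD51D, XRCC2 and XRCC3, which form complexes that assist strand exchange, did not move together. XRCC3 on chromosome 14 (103697617 to 103715451) had 35.4, 41.1 and 40.8 CPM in DJL1 and 56.0, 59.8, 55.0 and 55.8 CPM in CTRL (log2 fold change -0.54 ± 0.057, edgeR adjusted p = 1.34e-06). RAD51C on chromosome 17 (58692573 to 58735611), its partner, had 26.8, 28.2 and 24.5 CPM in DJL1 and 22.0, 20.1, 20.5 and 22.2 CPM in CTRL. It was thus higher in every DJL1 library than in any CTRL library, with a log2 fold change of 0.32 ± 0.065 (edgeR adjusted p = 0.000621), the opposite direction to XRCC3. In GENCODE 29 the exons of XRCC3 overlap those of KLC1 on the opposite strand over 45.4% of their length, so its count is uncertain. XRCC2 had 52.7, 40.8 and 40.8 CPM in DJL1 and 61.3, 61.2, 59.1 and 57.9 CPM in CTRL, and RAD51D had 11.9, 12.1 and 14.3 CPM in DJL1 and 15.7, 16.9, 17.1 and 18.0 CPM in CTRL. Both were lower, with log2 fold changes of -0.42 ± 0.074 and -0.40 ± 0.081. RAD51B had 122 to 246 counts in the DJL1 libraries and 253 to 331 in the CTRL libraries, and it was not called (0.09, 95% interval -0.26 to 0.45; -0.17 without DJL1 replicate 1). Of the motor proteins that act in strand exchange, RAD54L fell to 43.7 ± 4.54 CPM in DJL1, against 57.6 ± 1.08 CPM in CTRL, though its exons overlap those of LRRC41 on the opposite strand over 18.0% of their length. RAD54B averaged 12.5 ± 2.85 CPM in DJL1 and 14.1 ± 0.432 CPM in CTRL, was not called, and became lower without DJL1 replicate 1 (-0.33). RAD54B shares exons with FSBP, which is listed at 0 counts, so reads in the shared exons may be missing from either row.

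Of the genes that trim broken ends, 4 of 5 were lower. MRE11, the nuclease, on chromosome 11 (94415570 to 94512412), had 41.7, 34.2 and 34.5 CPM in DJL1 and 51.6, 50.4, 52.4 and 50.6 CPM in CTRL. NBN (nibrin), which recruits ATM, had 41.8, 36.7 and 38.7 CPM in DJL1 and 50.9, 48.2, 48.9 and 51.0 CPM in CTRL. EXO1, an exonuclease for long resection, had 39.2, 37.5 and 38.4 CPM in DJL1 and 47.3, 48.8, 47.2 and 49.3 CPM in CTRL. In each of the 3 the groups were apart, with log2 fold changes of -0.48 ± 0.063, -0.35 ± 0.052 and -0.33 ± 0.046. RAD50, the ATPase that tethers the ends, was lower by less (62.1 ± 5.84 CPM in DJL1 and 70.9 ± 1.19 CPM in CTRL, log2 fold change -0.19). In GENCODE 29 a readthrough gene on the same strand shares 90.6% of the RAD50 exons. RBBP8, which activates MRE11, was not called at 0.03 (95% interval -0.11 to 0.17), and its sign turned to -0.07 without DJL1 replicate 1.

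All 4 genes of the dissolution complex, in which the helicase BLM and the topoisomerase TOP3A separate crossed DNA molecules, were lower. RMI2, one of its stabilising subunits, had 34.1, 34.3 and 39.8 CPM in DJL1 and 44.9, 45.5, 46.5 and 46.1 CPM in CTRL, and RMI1, the other, had 27.5, 25.5 and 23.0 CPM in DJL1 and 32.9, 31.8, 32.2 and 30.7 CPM in CTRL. BLM had 39.1, 36.9 and 37.1 CPM in DJL1 and 42.1, 41.8, 42.5 and 41.1 CPM in CTRL. None of these overlapped between the groups, and their log2 fold changes were -0.34 ± 0.057, -0.33 ± 0.062 and -0.15 ± 0.047. TOP3A had the smallest called change of the 42, -0.14 ± 0.046 (67.0 ± 2.43 CPM in DJL1 and 73.6 ± 3.02 CPM in CTRL, edgeR adjusted p = 0.0218). Its call was lost without CTRL replicate 2, 3 or 4 (adjusted p = 0.0565, 0.0673 and 0.0537).

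Among the nucleases, the scaffold SLX4 had 16.9, 13.9 and 17.8 CPM in DJL1 and 21.1, 22.6, 23.2 and 21.7 CPM in CTRL. MUS81, which cuts branched DNA, had 28.4, 30.5 and 32.6 CPM in DJL1 and 38.0, 39.1, 37.1 and 38.4 CPM in CTRL, and FAN1, a nuclease recruited by the clamp, had 71.2, 70.0 and 69.2 CPM in DJL1 and 80.6, 79.8, 80.2 and 78.7 CPM in CTRL. The 3 were lower with the groups apart, and their log2 fold changes were -0.45 ± 0.079, -0.32 ± 0.055 and -0.19 ± 0.039. EME1, the partner of MUS81, averaged 20.5 ± 0.503 CPM in DJL1 and 19.3 ± 0.821 CPM in CTRL and was not called (0.09, 95% interval -0.04 to 0.22). Its exons overlap those of LRRC59 on the opposite strand over 10.3% of their length in GENCODE 29, and those of FAN1 overlap MTMR10 in the same way over 11.7%. Exons of MUS81 overlap those of CFL1, also on the opposite strand, over 2.7%, and CFL1 had 183246 counts over all libraries.

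Of the checkpoint genes CHEK2, CHEK1 and ATM were lower, whereas ATR, TOPBP1 and ATRIP were not called. CHEK2 on chromosome 22 (28687742 to 28741834), the kinase activated by ATM, had 39.9, 32.0 and 38.8 CPM in DJL1 and 52.1, 54.4, 53.7 and 52.0 CPM in CTRL. CHEK1 on chromosome 11 (125625136 to 125681124), the kinase activated by ATR, had 68.2, 58.6 and 69.9 CPM in DJL1 and 78.7, 79.4, 78.1 and 78.2 CPM in CTRL. Both were below CTRL in every library, with log2 fold changes of -0.52 ± 0.064 (edgeR adjusted p = 5.76e-06) and -0.26 ± 0.054 (edgeR adjusted p = 0.00071). ATM on chromosome 11 (108223067 to 108369102), the kinase that responds to breaks, had 36.0, 30.2 and 31.4 CPM in DJL1 and 38.2, 37.9, 36.5 and 35.8 CPM in CTRL. DJL1 replicate 1 overlapped CTRL, and the log2 fold change of -0.19 ± 0.061 (edgeR adjusted p = 0.0168) was not called without CTRL replicate 1 (adjusted p = 0.0547).

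ATR on chromosome 3 (142449235 to 142578733), the kinase that responds to stalled forks, had 14.4, 10.4 and 13.2 CPM in DJL1 and 11.6, 11.7, 10.7 and 12.8 CPM in CTRL. The groups overlapped, with a log2 fold change of 0.12 and a 95% interval of -0.10 to 0.34. Without DJL1 replicate 2, the lowest library, ATR was called higher at 0.23 (edgeR adjusted p = 0.0388). TOPBP1, which activates ATR, was not called and averaged 87.7 ± 7.20 CPM in DJL1 and 84.6 ± 1.46 CPM in CTRL (0.05, 95% interval -0.05 to 0.16; -0.02 without DJL1 replicate 1). ATRIP, the partner that brings ATR to single-stranded DNA, had only 21 to 41 counts in the DJL1 libraries and 56 to 118 in the CTRL libraries. RefSeq places TREX1, listed at 0 counts, and the readthrough gene ATRIP-TREX1 over the span of ATRIP, and reads that fall in more than 1 gene may not have been counted, so that its low level and its log2 fold change of -0.45 ± 0.29 are uncertain.

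The ratio of the counts of a pair of genes within a library does not depend on how libraries are scaled. It was computed for 12 pairs, 11 of them direct partners in a complex and the last CHEK2 over CHEK1. The pairs, and which gene stands on top, were chosen after the values had been seen. In 8 pairs the ratios of the DJL1 libraries were all below those of the CTRL libraries, and in 4 they overlapped. Ratios that do not overlap were common, at 66.3% of all pairs of tested genes with a mean of 8 to 64 CPM and 47.2% of the 861 pairs among the 42 genes, in either direction. The 8 of 12 are near the share over the tested genes and are given as a description. An exact 2-sided permutation test over 3 DJL1 and 4 CTRL libraries cannot go below p = 0.0571, which each of the 8 pairs reached, and the adjusted p over the 12 pairs was then 0.0857, so that none passed 0.05. XRCC3 over RAD51C was 1.32 to 1.66 in DJL1 and 2.52 to 2.98 in CTRL, a difference in the mean log2 ratio of -0.86. BRCA1 over BARD1 was 1.08 to 1.29 in DJL1 and 1.38 to 1.495 in CTRL (-0.33), and MUS81 over EME1 was 1.42 to 1.60 in DJL1 and 1.83 to 2.10 in CTRL (-0.41). In each of the 3 pairs the upper gene was called lower in DJL1, and the other gene was higher or not called. Exons of XRCC3, MUS81 and EME1 overlap those of other genes, as given above, so the ratios with these genes are uncertain.

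In 4 further pairs without overlap both genes were called lower. MRE11 over RAD50 was 0.578 to 0.605 in DJL1 and 0.714 to 0.731 in CTRL (-0.29), and FANCD2 over FANCI was 1.02 to 1.07 in DJL1 and 1.17 to 1.24 in CTRL (-0.21). BRCA2 over PALB2 was 0.609 to 0.684 in DJL1 and 0.704 to 0.768 in CTRL (-0.22). CHEK2 over CHEK1 was 0.546 to 0.585 in DJL1 and 0.663 to 0.688 in CTRL (-0.26). The last pair with no overlap was FANCF over FANCE (-0.44). The ratios that overlapped were FANCL over FANCB (-0.25, exact permutation p = 0.114), FANCA over FANCG (-0.07, p = 0.171), RMI2 over RMI1 (-0.01, p = 0.914) and RAD51D over XRCC2 (0.02, p = 0.971). The signs of the last 2 turned when 1 library was left out, with ranges of -0.15 to 0.09 and -0.12 to 0.19.

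**Figure D4:**
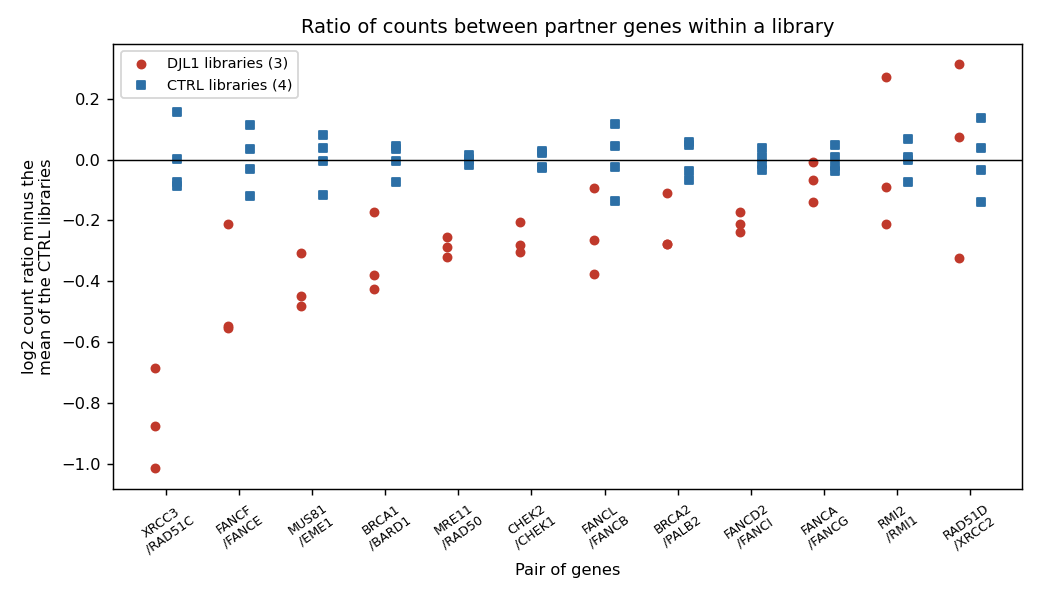
For each of 12 pairs the log2 ratio of raw counts is shown per library, minus the mean of the CTRL libraries (red circles, DJL1; blue squares, CTRL). The 3 DJL1 points lie below all CTRL points in 8 pairs, farthest for XRCC3 over RAD51C, while 66.3% of all pairs of tested genes of 8 to 64 CPM do not overlap in either direction. Which gene stands on top was chosen after the values had been seen. The count of XRCC3 is uncertain because its exons overlap those of KLC1.

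In each of the neighbouring lists of repair and checkpoint genes more genes were lower than higher, and the share of lower genes was under that of the 42. Lower were 41.2% of the further Fanconi genes, 56.25% of those of homologous recombination, 50% of those of the checkpoint and 59.1% of those of end joining. Among all tested genes 25.1% were lower and 27.0% higher, and among those of 8 to 64 CPM 38.3% and 28.9%. The share of the further Fanconi genes was near that of 8 to 64 CPM. Of 17 further Fanconi genes 7 were lower and 2 higher in DJL1, with a median log2 fold change of -0.17. FAAP100, a core complex subunit, fell to 29.5 ± 2.68 CPM in DJL1, against 46.7 ± 2.14 CPM in CTRL (-0.66), and CENPX, a histone-fold partner of FANCM, to 20.4 ± 2.37 CPM, against 31.6 ± 1.02 CPM (-0.64). REV3L, the catalytic subunit of the translesion polymerase zeta, rose to 48.5 ± 5.10 CPM in DJL1, against 21.8 ± 1.63 CPM in CTRL (1.16 ± 0.073). Of 32 tested further genes of homologous recombination 18 were lower and 2 higher, with a median of -0.24, including TONSL, a repair factor at replication forks (-0.54), RPA3, the small subunit of the single-strand binding protein (-0.59), and the nuclease gene DNA2 (-0.46). Of 26 further checkpoint genes 13 were lower and 4 higher, with a median of -0.17. TELO2, which stabilises ATM and ATR (-0.61), and PKMYT1, a kinase that inhibits CDK1 (-0.60), were lower. PPM1D, a phosphatase that switches the checkpoint off and a p53 target, rose to 101 ± 10.4 CPM in DJL1, against 37.7 ± 2.10 CPM in CTRL (1.43 ± 0.063). Of 22 genes of end joining, the other route of break repair, 13 were lower and 2 higher, with a median of -0.21, the polymerase gene POLM at -0.86, LIG3 at -0.49 and MAD2L2, also in the Fanconi list, at -0.37.

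Genes of DNA replication and of mitosis had shares of lower genes close to that of the 42 genes, but larger shares of higher genes. Higher were 10% of the S phase genes and 16.7% of the mitosis genes, against 2.38% of the 42. In a list of 40 S phase genes 29 fell (72.5%) and 4 rose, with a median log2 fold change of -0.26, and the transcription factor gene E2F1 and the helicase gene MCM5 were both at -0.65. Of 30 mitosis genes 22 were lower (73.3%) and 5 higher, with a median of -0.22. CDK1 and the kinase gene AURKB were at -0.62 and -0.44, whereas CDC20, an activator of the anaphase complex, was higher at 0.51. Of 30 p53 targets 27 were higher, with a median of 0.98, and those with the smallest adjusted p were PLK2 (1.60), FDXR (1.30) and GDF15 (1.69). Differences between the 42 genes and any of the lists were not tested.

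**Figure D5:**
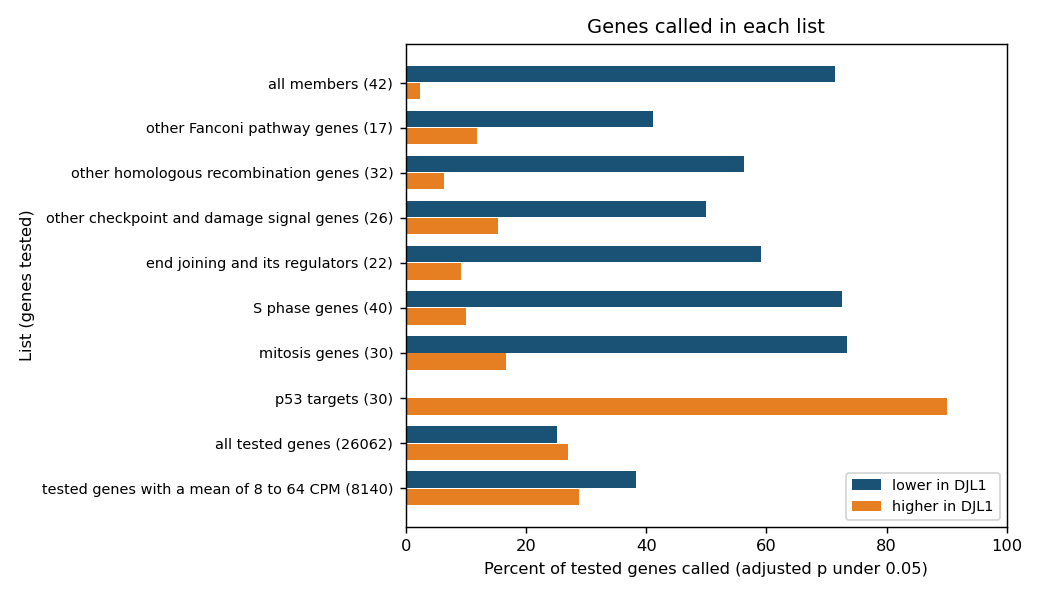
Bars give the percent of tested genes in each list that were called lower (blue) or higher (orange) in DJL1 at an adjusted p under 0.05, with the number tested in brackets, and the last 2 rows give all tested genes and those of 8 to 64 CPM. The 42 genes (71.4% lower), S phase genes (72.5%) and mitosis genes (73.3%) have long blue bars, and the p53 targets a long orange one.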

How the data were processed

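The authors deposited raw counts per gene symbol, 1 column for each of 3 DJL1 and 4 CTRL libraries, which were used without change. The authors' deposited table of the comparison gives, per the file headers, a log2 fold change and an adjusted p-value per gene. A deposited table of log values with an unnamed transform was not used. Tools listed in the submitters' processing notes, without roles, are HISAT2 2.2.1, Trim Galore 0.4.0, Subread 1.5.0 and featureCounts, with the builds hg38 and GRCh38. Libraries were made from poly(A) RNA with a strand-specific kit, per the labels' protocols, while the strand setting of the counter and its handling of multimapped reads are not stated there. Whether cells were sorted is unclear from the labels.

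Rows kept by filterByExpr of edgeR (a total of at least 15, minimum count 10) numbered 26062 of 59251 with 99.9% of all counts. After TMM scaling they were tested with edgeR's quasi-likelihood test (robust, 2-sided, Benjamini-Hochberg adjustment over all tested rows at 0.05). The test was also run on simulated counts in which both groups had the same spread. That run therefore did not cover the unequal spread of the groups seen here. Standard errors were derived from each fold change and its F statistic. CPM values are means ± SD. Levels per kilobase use the longest principal transcript of GENCODE 29. DESeq2 1.42.0, limma 3.58.1 and edgeR 4.0.16 were run in R 4.3.3. The members, the gene lists and the tests were chosen with earlier results of these data known. Of the members, values of every library are given for at most 3 per role, those called with the largest change, and for BRCA1, BRCA2, FANCD2, FANCI, ATM, ATR, CHEK1, CHEK2 and RAD51C. Of each other list the 3 genes with the smallest adjusted p are named, apart from 1 result that is not reported here. RAD51C was added after its values were seen.

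The alternatives were DESeq2, limma-voom without and with a variance for each group, upper quartile and relative log expression factors, library size as the single factor, no filter, at least 1 CPM in 3 libraries, counts thinned to the smallest library, protein-coding genes alone, removal of the trend with transcript length, the replicate number as a block, a threshold of 0.01 on the adjusted p, and the omission of 1 library at a time. Leaving out libraries for the partner ratios, and their share over all gene pairs, were added after the data were seen.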

Additional observations from a re-analysis of the deposited data

Results flagged for a closer look

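In the 4 CTRL libraries RAD54B stood at 14.8 CPM in replicate 3, far from the other 3 libraries relative to the narrow range of the group. It was the single case among the 42 genes, and chance gives such a gap in about 1 of 20 groups. The DJL1 group, with 3 libraries, was too small for this rule.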

How the results depend on the processing

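Over 19 alternatives, without the void length check below, the count of genes called lower ran from 26, at an adjusted p of 0.01, to 31, and the median of the 42 log2 fold changes from -0.35 to -0.29. With 1 library left out in turn, the count of lower genes was 28 to 31 and that of higher genes 1 to 2. In total 31 of the 42 genes kept their direction and their side of the threshold in all 19, among them 26 lower genes. Besides the single-library cases given with each gene, BRIP1 lost its call with a variance for each group, with thinned counts, at 0.01 and with the block, BLM and TOP3A at 0.01 and with the block, and ATM at 0.01. The sign of BARD1, which was not called in any setting, turned to -0.0076 with DESeq2, -0.0077 with relative log expression factors, -0.029 without a filter and -0.021 in protein-coding genes alone, and ran from -0.071 to 0.029 with 1 library left out. RBBP8 was at -0.0030 without a filter and ran from -0.069 to 0.090 with 1 library left out, RAD51B from -0.17 to 0.27 and TOPBP1 from -0.017 to 0.099. The ratios of RMI2 over RMI1 and RAD51D over XRCC2 ran from -0.15 to 0.091 and from -0.12 to 0.19. The causes were not tested. Lengths were found for 19890 of 26062 tested genes, under 80%, so the length check is void; its value for BARD1 was -0.032.

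The groups share replicate numbers, but same-numbered libraries did not deviate together (r of -0.039 to -0.0089 across genes), and 0 of 3 DJL1 libraries correlated best with its own number. With the replicate block 27 of the 42 genes were lower and 1 higher. ATRIP had the fewest counts of the 42, 21 to 118 a library, and so the largest relative counting error.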
